A study of Mus musculus with 6 samples.

Results

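Rab proteins are small GTPases that sit on membranes and direct vesicle traffic, and 53 of their genes were followed here in F4/80+ cells sorted from mouse liver tumours. The genes were taken from a table of 55401 rows as those with a mouse protein-coding symbol made of Rab, a number and at most 1 letter from a to d. The symbol rule found 59 rows, and 53 of them had at least 10 counts in at least 3 libraries. All 53 also passed the expression filter of the test, which kept 18277 genes in all. None of the 53 met the count rule through 1 group alone, and 49 had at least 10 counts in every library.

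The tumours grew from Hepa 1-6 cells, a mouse hepatoma line, placed in the right liver lobe and collected at day 14, with no further treatment. In the Sms-OE group the injected cells overexpressed Sms, the gene of spermine synthase, through a lentivirus, and in the WT Control group they did not. Each group had 3 libraries of polyadenylated RNA. The engineering was thus done in the injected tumour cells. Whether some of those cells, or their RNA, entered the sorted libraries was not tested. The sources used here give neither the mouse strain, age and sex, nor whether the Sms-OE line was 1 clone, nor whether each library came from its own mouse. The p-values therefore measure the spread between these libraries, which may be technical.

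A Rab protein works as a switch. Exchange factors load it with GTP, which makes it recruit effectors such as motors, tethers and lipid kinases, and GTPase-activating proteins end the signal. Prenyl groups hold it in the membrane, and a dissociation inhibitor returns it to the cytosol. Different Rabs mark different compartments, so in macrophages they take part in uptake, in the ripening of phagosomes and in secretion.

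Totals ran from 49833764 to 51123047 estimated counts in the Sms-OE libraries and from 51583985 to 58154006 in the control libraries. Values below are CPM, counts relative to the library total scaled by its TMM factor, and a log2 fold change is Sms-OE over control. Sms RNA itself was higher in the Sms-OE libraries (edgeR, Benjamini-Hochberg adjusted p = 0.0382). Its level was 32.9, 33.2 and 33.2 CPM there, against 26.0, 28.3 and 26.2 CPM in the control libraries. Hepatoma markers were present in every library, at a summed 49.3 to 69.8 CPM in Sms-OE and 72.02 to 88.1 CPM in control. Whether engineered tumour cells supplied part of the Sms counts was not tested. The macrophage markers Adgre1, which encodes F4/80, at 521 to 660 CPM in Sms-OE and 334 to 539 CPM in control libraries, and Cd68, at 166 to 199 CPM in Sms-OE and 231 to 241 CPM in control libraries, were present throughout. Cd68 was lower in Sms-OE (edgeR, Benjamini-Hochberg adjusted p = 0.0181) and Adgre1 did not pass. Of 10 macrophage markers 2 were higher and 2 lower. Markers of other cells differed between the groups as well. All 7 Kupffer cell markers rose (summed level 360 to 476 CPM in Sms-OE and 151 to 169 CPM in control libraries). Of 12 hepatocyte markers 10 fell, with Cps1 at 0 in the Sms-OE libraries (392 to 604 CPM in Sms-OE, 775 to 1024 CPM in control). Summed neutrophil markers ran from 2683 to 4578 CPM in Sms-OE and from 3701 to 6523 CPM in control libraries, with 2 of 9 higher and none at 0. Haemoglobin rows took 0.485% and 0.512% of the counts in Sms-OE replicates 2 and 3, against 0.0225% in Sms-OE replicate 1 and at most 0.0172% in the control libraries. Mitochondrial rows took 2.16 to 3.12% in Sms-OE and 4.99 to 7.13% in control libraries. The part of these differences in the Rab values was not tested. In such bulk RNA, fewer cells of a type and less RNA per cell cannot be told apart.

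Across the Rab genes, change between the groups was limited to a few members and mostly small. At an adjusted p under 0.05, 3 of the 53 rose and 4 fell, while 46 did not pass. That is 13.2% of the Rab genes, beside 26.9% of all tested genes (12.5% higher and 14.3% lower). The groups did not overlap for 16 Rab genes, 7 higher and 9 lower in Sms-OE, beside 44.1% of all tested genes (20.8% higher and 23.3% lower). The 3 that rose were Rab8b, Rab33b and Rab6a, and the 4 that fell were Rab13, Rab29, Rab3d and Rab18. With library size alone in place of TMM scaling, 2 rose and 1 fell (5.66%, beside 23.6% of all tested genes). The median log2 fold change was -0.08 over the Rab genes and -0.0006 over all tested genes, and the sign of the Rab median changed to 0.07 (all tested genes 0.06) once each library was given offsets for transcript length and GC content. With those offsets 6 Rab genes were higher and 4 lower, or 18.9%, beside 21.1% of all tested genes. The shortfall of Rab genes past the threshold was thus small under the offsets.

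The numbers of Rab genes past the threshold depended on single libraries, as did the numbers over all genes. Only 2 passed without control replicate 2 and only 2 without control replicate 3, in each case Rab8b and Rab13, and 4 passed without control replicate 1. In that order these were 3.77%, 3.77% and 7.55% of the Rab genes, beside 15.9%, 17.4% and 17.6% of all tested genes. Rab8b alone was called higher without any 1 of the control libraries or without Sms-OE replicate 1. With the hepatocyte marker level as a covariate 0 Rab genes and 0 of all genes passed in edgeR (2 and 1187 at an unadjusted p under 0.05). Of that covariate, a mean log2 CPM, the libraries held 1.27 to 2.098 in Sms-OE and 3.79 to 4.46 in control, so it separates the groups completely. Without Sms-OE replicates 2 and 3, 0 Rab genes passed in edgeR (10 at an unadjusted p under 0.05), with the lone Sms-OE library assumed to vary like the controls.

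**Figure D1:**
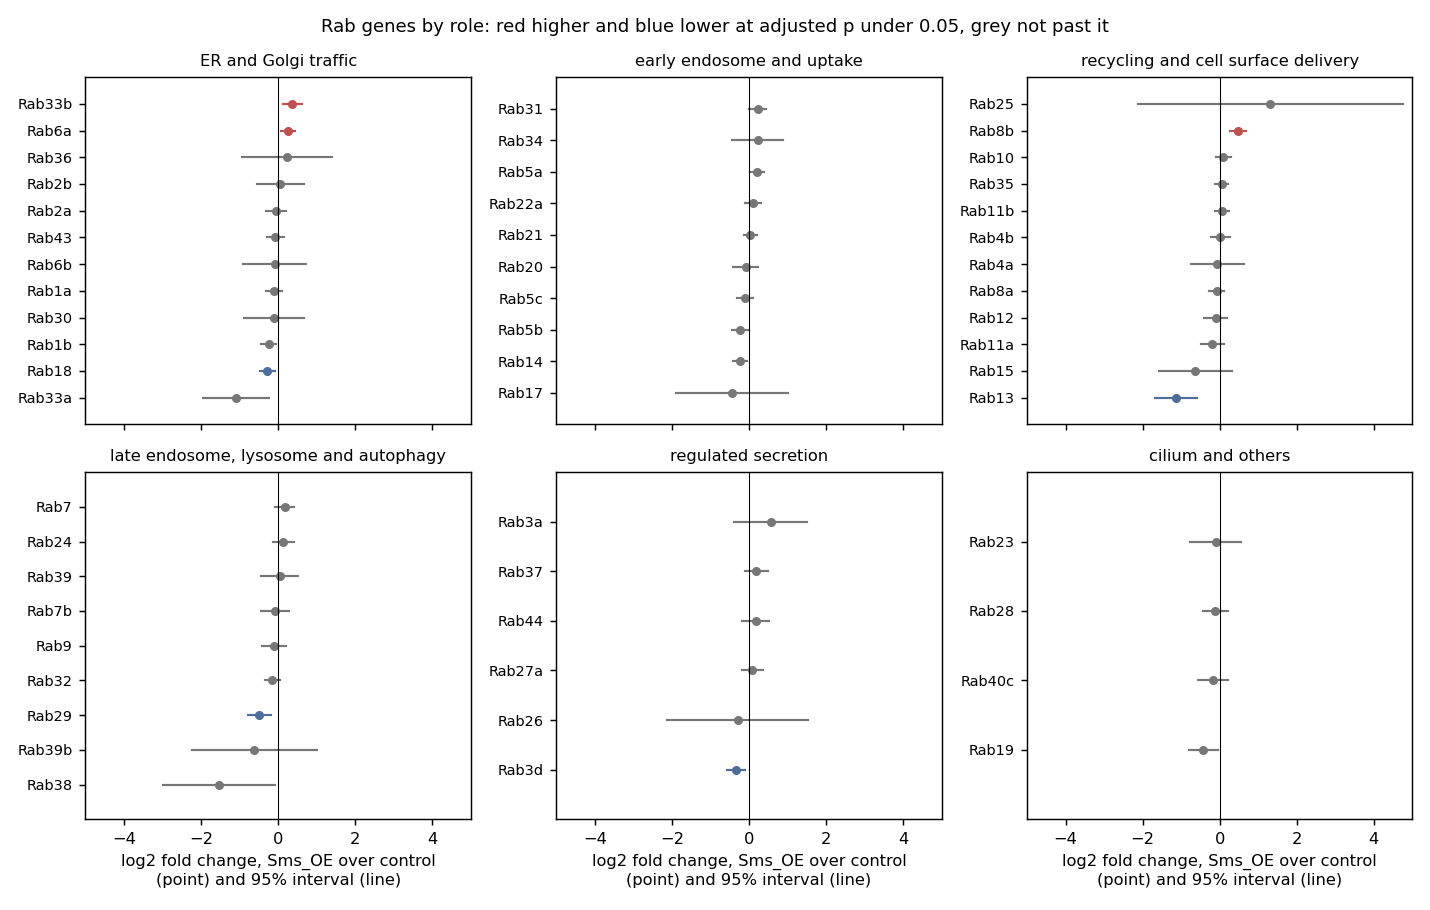
Log2 fold changes of the 53 Rab genes, Sms_OE over control, in 6 panels by cellular role, each point with its 95% interval from edgeR (n = 3 libraries a group). Red points passed the threshold as higher (3 genes), blue as lower (4 genes) and grey did not pass (46 genes).

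Rab8b had the smallest p among the Rab genes. Rab8 proteins carry vesicles from the Golgi and recycling tubules to the plasma membrane. Rab8b (ENSMUSG00000036943) had 379, 419 and 393 CPM in the Sms-OE libraries, against 285, 297 and 276 CPM in the control libraries. Every Sms-OE library lay above every control library. The log2 fold change was 0.47 ± 0.088 (SE), or 1.39-fold, with a Benjamini-Hochberg adjusted p of 0.00397 in edgeR. The gene lies at chr9:66843664-66919687 on the minus strand of GRCm38.

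Its paralogue Rab8a, which acts on the same routes and on macropinosomes, did not pass. Rab8a had 173, 193 and 190.4 CPM in the Sms-OE libraries, against 196, 192 and 203 CPM in the control libraries. The groups overlapped, and the log2 fold change of -0.08 had a 95% interval of -0.27 to 0.10 (edgeR, Benjamini-Hochberg adjusted p = 0.514).

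Rab33b, a Golgi Rab that binds the autophagy protein Atg16l1, rose as well. It had 21.4, 19.2 and 20.2 CPM in the Sms-OE libraries, against 15.7, 15.3 and 16.1 CPM in the control libraries, with no overlap. Its log2 fold change was 0.37 ± 0.11 (SE), or 1.29-fold, with a Benjamini-Hochberg adjusted p of 0.0345 in edgeR. The gene (ENSMUSG00000027739) lies at chr3:51483920-51496232 on the plus strand. The paralogue Rab33a was far lower, at 0.474, 0.562 and 0.908 CPM in the Sms-OE libraries, against 1.35, 1.16 and 1.67 CPM in the control libraries. Its groups did not overlap either, in the opposite direction, but its log2 fold change of -1.10 ± 0.39 (SE) had an adjusted p of 0.0584 (edgeR, Benjamini-Hochberg).

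Rab6a, which drives traffic back through the Golgi to the endoplasmic reticulum and outward to the surface, had 94.9, 88.9 and 88.7 CPM in the Sms-OE libraries, against 80.1, 75.04 and 73.3 CPM in the control libraries. The 2 groups were separate, and the log2 fold change was 0.25 ± 0.081 (SE) with a Benjamini-Hochberg adjusted p of 0.0417 in edgeR. Rab6a (ENSMUSG00000030704) lies at chr7:100607410-100641268 on the plus strand. Of its exon bases 19% overlap Mrpl48, a mitochondrial ribosomal gene on the opposite strand, whose log2 fold change was -0.80 ± 0.12 (SE; adjusted p = 0.00171, edgeR). The sources used here do not say whether the counting used strand, so reads in that overlap may be shared.

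Promoter sequences are shown for the 3 Rab genes that rose and for the paralogues Rab8a and Rab33a, which did not pass, so that the members of each pair can be set side by side. Each runs from 250 bases before to 50 bases after a RefSeq transcription start in GRCm38.p6 and is written 5′ to 3′ on the gene's strand. Capitals mark matches, on either strand, to 3 motifs: the GC box GGGCGG, the CCAAT box, and GAGGAA, the core bound by PU.1, a transcription factor of macrophages. The positions are chr9:66919656-66919955 on the minus strand for Rab8b, chr8:72160950-72161249 on the plus strand for Rab8a, chr3:51483716-51484015 on the plus strand for Rab33b, chrX:48519035-48519334 on the plus strand for Rab33a and chr7:100607336-100607635 on the plus strand for Rab6a.
Rab8b: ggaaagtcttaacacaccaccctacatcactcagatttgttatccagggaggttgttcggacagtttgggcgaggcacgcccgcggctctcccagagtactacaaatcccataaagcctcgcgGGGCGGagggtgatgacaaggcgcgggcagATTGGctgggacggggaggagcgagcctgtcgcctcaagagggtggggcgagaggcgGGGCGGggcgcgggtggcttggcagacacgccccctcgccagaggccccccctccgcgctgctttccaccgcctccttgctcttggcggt
Rab8a: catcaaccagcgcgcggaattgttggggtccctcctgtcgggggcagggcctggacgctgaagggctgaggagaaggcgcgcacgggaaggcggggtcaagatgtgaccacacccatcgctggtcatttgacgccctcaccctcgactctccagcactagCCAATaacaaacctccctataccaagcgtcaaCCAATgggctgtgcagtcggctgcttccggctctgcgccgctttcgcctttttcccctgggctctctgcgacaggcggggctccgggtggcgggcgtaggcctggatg
Rab33b: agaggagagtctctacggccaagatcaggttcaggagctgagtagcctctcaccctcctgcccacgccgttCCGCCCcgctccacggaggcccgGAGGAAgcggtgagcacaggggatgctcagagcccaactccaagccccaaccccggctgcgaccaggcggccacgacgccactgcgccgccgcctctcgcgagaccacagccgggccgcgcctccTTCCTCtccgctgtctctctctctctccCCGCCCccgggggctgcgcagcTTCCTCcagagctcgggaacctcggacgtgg
Rab33a: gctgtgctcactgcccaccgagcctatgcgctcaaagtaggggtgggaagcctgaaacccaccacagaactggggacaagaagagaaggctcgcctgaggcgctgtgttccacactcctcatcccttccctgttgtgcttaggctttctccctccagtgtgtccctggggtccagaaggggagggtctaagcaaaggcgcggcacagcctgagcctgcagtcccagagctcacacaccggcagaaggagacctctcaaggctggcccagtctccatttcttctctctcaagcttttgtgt
Rab6a: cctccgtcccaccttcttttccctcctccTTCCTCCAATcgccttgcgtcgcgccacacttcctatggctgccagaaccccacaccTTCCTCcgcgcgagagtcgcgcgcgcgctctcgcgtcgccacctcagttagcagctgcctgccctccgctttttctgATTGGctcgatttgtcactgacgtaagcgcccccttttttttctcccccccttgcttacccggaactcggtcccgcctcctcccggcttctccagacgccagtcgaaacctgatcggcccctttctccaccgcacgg

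In these windows Rab8b held 2 GC boxes and 1 CCAAT box, and Rab8a held 2 CCAAT boxes. Rab33b held 2 GC boxes and 3 PU.1 cores, Rab33a held none of the 3 motifs, and Rab6a held 2 CCAAT boxes and 2 PU.1 cores. No motif was present in all 3 promoters of the genes that rose. Over the 43 Rab genes with an entry, 55 promoters were listed, and 65.5% of them held a GC box, beside 35.7% of all 32851 promoters of the same length. The CCAAT box stood in 40% of the Rab promoters and 37.4% of all, and the PU.1 core in 20.0% of the Rab promoters and 28.3% of all. The Rab promoters had a median GC content of 62.0% and a median of 22 CpG sites, against 52.7% and 7 over all promoters. A match to these letters describes the window only.

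**Figure D2:**
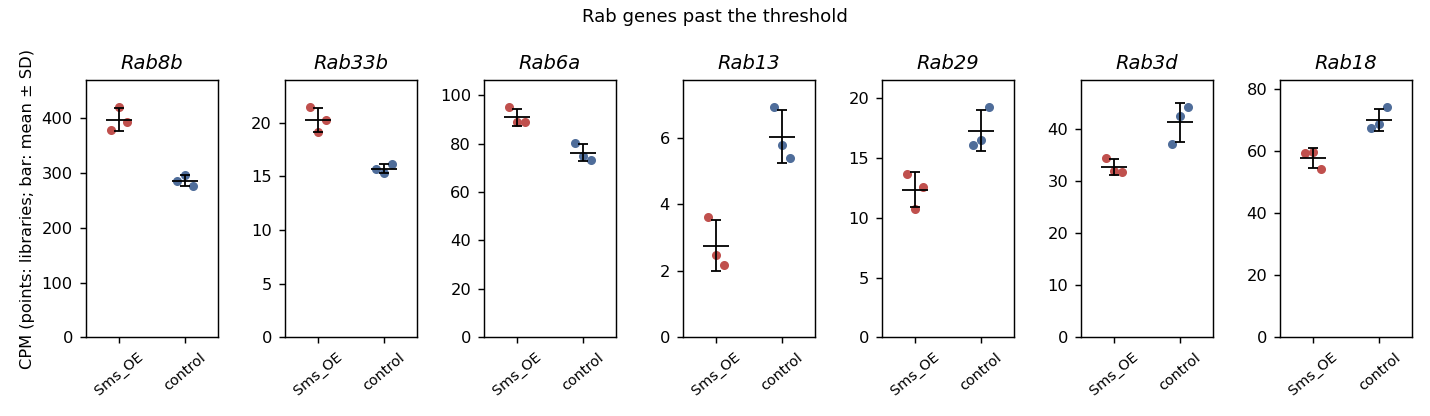
CPM of the 7 Rab genes past the threshold in each library, with Sms_OE libraries left and control libraries right in each panel and the bar at the mean ± SD (n = 3 libraries a group, axes from 0). Rab8b, Rab33b and Rab6a are higher in every Sms_OE library, and Rab13, Rab29, Rab3d and Rab18 are lower in every Sms_OE library.

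Rab13 showed the largest fall past the threshold. Rab13, known for delivery of junction and surface proteins in epithelial cells, had 3.62, 2.47 and 2.18 CPM in the Sms-OE libraries, against 6.91, 5.78 and 5.40 CPM in the control libraries. No library of one group reached the other. Its log2 fold change was -1.13 ± 0.24 (SE), or 2.19-fold lower, with a Benjamini-Hochberg adjusted p of 0.0080 in edgeR. Rab13 (ENSMUSG00000027935) lies at chr3:90213695-90226385. Its level, at a mean of 2.76 CPM in Sms-OE and 6.03 CPM in control libraries, was the lowest of the 7. Hepatocyte markers, which fell too, ran in the same direction, and their part in the Rab13 value was not tested.

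Rab29, which brings the kinase Lrrk2 to Golgi and lysosome membranes, had 13.6, 10.7 and 12.6 CPM in the Sms-OE libraries, against 16.1, 16.5 and 19.2 CPM in the control libraries. The groups did not overlap. The log2 fold change was -0.49 ± 0.14 (SE), or 1.40-fold lower (edgeR, Benjamini-Hochberg adjusted p = 0.0276), and it was -0.14 with an adjusted p of 0.479 once offsets for gene length and GC content were added. Rab29 (ENSMUSG00000026433) lies at chr1:131867224-131872887 and has one of the shorter transcripts of the family. Lrrk2, whose kinase product phosphorylates several Rab proteins, had 83.6, 108 and 103 CPM in the Sms-OE libraries, against 49.9, 75.6 and 75.4 CPM in the control libraries, and rose 1.47-fold (edgeR, Benjamini-Hochberg adjusted p = 0.0298). Rab29 and Lrrk2 thus moved in opposite directions.

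Rab3d, a Rab of secretory granules, had 34.4, 31.9 and 31.7 CPM in the Sms-OE libraries, against 37.1, 42.5 and 44.1 CPM in the control libraries. The gap between the groups was narrow, between 34.4 and 37.1 CPM. Its log2 fold change was -0.33 ± 0.10 (SE; edgeR, Benjamini-Hochberg adjusted p = 0.0332), and the gene (ENSMUSG00000019066) lies at chr9:21907491-21918192. Rab18 (ENSMUSG00000073639), a Rab of the endoplasmic reticulum and of lipid droplets, had 59.6, 59.7 and 54.2 CPM in the Sms-OE libraries, against 67.5, 68.7 and 74.2 CPM in the control libraries. Its groups were separate too, with a log2 fold change of -0.28 ± 0.086 (SE) and a Benjamini-Hochberg adjusted p of 0.0364 in edgeR. Of the 7 genes, Rab8b and Rab13 kept their call in 17 of 19 alternative analyses and the other 5 in 8 to 11.

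The Rab genes differed widely in level, here given as CPM per kilobase of the longest transcript so that genes can be compared. Rab44 stood first at a mean of 289 (range over the 6 libraries 232 to 379), followed by Rab7 at 273 (255 to 337), Rab20 at 162 (129 to 198) and Rab5c at 152 (135 to 162). These 4 made up 52.32% of the summed level per kilobase of the 53 genes, and the first 10 made up 71.53%. The ranges of Rab44 and Rab7 overlapped, as did those of Rab20 and Rab5c, while Rab7 lay above Rab20 and Rab5c above the next gene, Rab8b at 72.1 (58.3 to 88.6), in every library. Of the 52 pairs of neighbours in the order, only 4 were separate in this way. In CPM, 12 genes averaged over 100, 35 at least 10, 13 between 1 and 10 and 5 under 1.

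**Figure D3:**
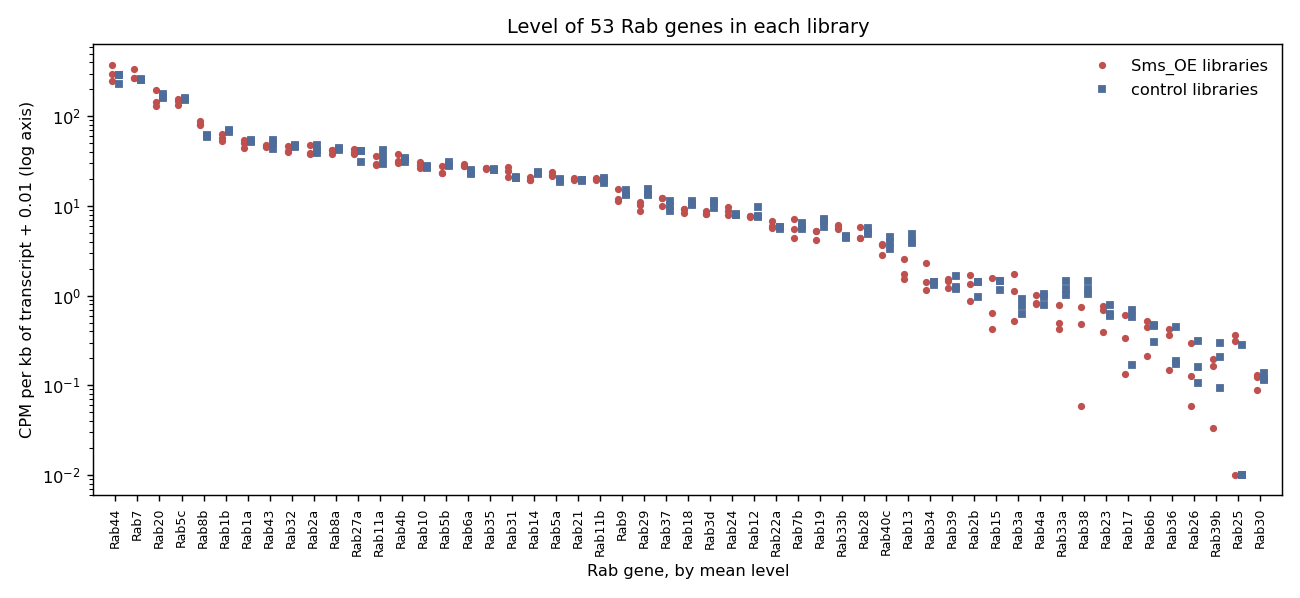
Level of each of the 53 Rab genes in each library, as CPM per kb of transcript plus 0.01 on a log axis, ordered by the mean over 6 libraries (red circles, Sms_OE; blue squares, control). Rab44, Rab7, Rab20 and Rab5c stand above the rest, and the lowest genes spread most between libraries.

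Regulated secretion held the most abundant gene. Rab44, a large Rab with an added calcium-binding region that in mice is known from granule release by mast cells, had 1012, 1556 and 1208 CPM in the Sms-OE libraries, against 954, 1200.2 and 1181 CPM in the control libraries. The groups overlapped, the log2 fold change was 0.18 ± 0.16 (SE; edgeR, Benjamini-Hochberg adjusted p = 0.449), and it was -0.01 without Sms-OE replicate 2. Rab27a, which docks secretory granules and exosome-bearing compartments, ranged from 119 to 136 CPM in Sms-OE and from 97.8 to 131 CPM in control libraries. Rab37, also a granule Rab, ranged from 26.3 to 32.0 CPM in Sms-OE and from 22.8 to 29.9 CPM in control libraries. Rab3a and Rab26, known from nerve terminals and exocrine cells, were under 3 CPM in every library. Of the 6 genes of this role, Rab3d alone passed, as lower.

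Rab7, the Rab of late endosomes that fuses them with lysosomes, led its role. It had 572, 727 and 576 CPM in the Sms-OE libraries, against 555, 557 and 551 CPM in the control libraries. All Sms-OE libraries lay above all controls, but the spread in Sms-OE was wide and the log2 fold change of 0.17 ± 0.11 (SE) did not pass (edgeR, Benjamini-Hochberg adjusted p = 0.288). The Rab7 value depended on the processing: it was 0.40 with length and GC offsets, past the threshold (edgeR, adjusted p = 0.0268), and 0.04 without Sms-OE replicate 2. Rab32, known from lysosome-related organelles and from defence against bacteria in phagosomes, had 88.1, 100.1 and 85.9 CPM in the Sms-OE libraries, against 101, 104 and 98.8 CPM in the control libraries, which overlap. Its close relative Rab38 had 1.16, 0.743 and 0.0773 CPM in the Sms-OE libraries, against 2.27, 1.61 and 1.83 CPM in the control libraries. Rab38 had the most negative log2 fold change of the family, -1.53 ± 0.65 (SE), with an adjusted p of 0.113 (edgeR, Benjamini-Hochberg), and Sms-OE replicate 3 alone held the lowest value. Rab9, which retrieves receptors from late endosomes to the Golgi, Rab24, linked to autophagy, Rab7b, Rab39 and Rab39b did not pass, with log2 fold changes from -0.62 to 0.14. Rab24 shares 62.4% of its exon bases with Prelid1 on the opposite strand, which had 17055 mean counts against 808 for Rab24, so its value is uncertain. Rab29, described above, was the 1 gene of the 9 in this role that passed.

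None of the 10 genes of early endosomes and uptake passed, but with offsets for transcript length and GC content Rab5a, Rab14 and Rab31 did, at adjusted p-values of 0.0224, 0.0231 and 0.0406 in edgeR. Rab5a also passed with a filter of 1 CPM in 3 libraries, and Rab14 with limma-voom. Rab14 and Rab5b passed without Sms-OE replicate 1, and Rab31 without Sms-OE replicate 3. Rab5c, one of the 3 Rab5 genes that govern fusion of early endosomes, had 266, 292 and 308 CPM in the Sms-OE libraries, against 301, 308 and 318 CPM in the control libraries. Rab20, which acts in the maturation of macrophage phagosomes, had 179.6, 275 and 199.8 CPM in the Sms-OE libraries, against 223, 228 and 245 CPM in the control libraries. In both genes the groups overlapped, and for Rab20 the Sms-OE libraries lay on either side of the controls. Rab5a had 68.9, 77.1 and 70.8 CPM in the Sms-OE libraries, against 62.1, 64.1 and 60.3 CPM in the control libraries, separate but not past the threshold (log2 fold change 0.22; edgeR, Benjamini-Hochberg adjusted p = 0.0811). Rab5b stood at 0.118 and Rab31, which works between the Golgi and endosomes, at 0.109 for the same adjusted p, with log2 fold changes of -0.23 and 0.23. Rab14, of endosomes and phagosomes, had 107, 97.4 and 96.4 CPM in the Sms-OE libraries, against 117, 121 and 114 CPM in the control libraries, with an adjusted p of 0.0588 (edgeR, Benjamini-Hochberg). Rab21, which binds integrin tails, and Rab22a had log2 fold changes of 0.03 and 0.10, and Rab34 and Rab17 were under 4 CPM in every library.

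Of the 12 genes of traffic between endoplasmic reticulum and Golgi, Rab6a and Rab33b rose, Rab18 fell and 9 did not pass. Rab1a and Rab1b start transport out of the endoplasmic reticulum. Rab1b had 109, 100.3 and 120.1 CPM in the Sms-OE libraries, against 134, 130.4 and 128 CPM in the control libraries, separate groups with an adjusted p of 0.061 (edgeR, Benjamini-Hochberg). Rab1a had 144, 152 and 125 CPM in the Sms-OE libraries, against 149, 154 and 148 CPM in the control libraries, which overlap. Rab2a, which tethers vesicles at the Golgi, and Rab43, known from cross-presentation by mouse dendritic cells, had log2 fold changes of -0.05 and -0.07. For Rab43, 75.4% of the exon bases overlap Gm45140 on the same strand, so reads could be split between them. Rab2b, Rab6b, Rab36 and Rab30 were low, at means under 5 CPM in either group, and their 95% intervals ran beyond 1.5-fold on at least 1 side.

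Among the 12 genes of recycling and delivery to the surface, Rab8b rose and Rab13 fell. Rab11a and Rab11b, the Rabs of recycling endosomes, had log2 fold changes of -0.19 and 0.05. Rab10, known from delivery of glucose transporters, and Rab35, of fast recycling, had log2 fold changes of 0.09 and 0.05. Rab35 stood at 74.0, 74.0 and 73.3 CPM in the Sms-OE libraries and 70.3, 72.6 and 70.8 CPM in the control libraries, which did not overlap although the difference did not pass. Rab4b and Rab12 had log2 fold changes of 0.02 and -0.11. Rab4a and Rab15 were under 5 CPM in every library, and Rab25, an epithelial Rab, had 17, 19 and 0 counts in the Sms-OE libraries and 0, 0 and 14 counts in the control libraries, just inside the count rule.

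The 4 remaining genes did not pass either. Rab23, a negative regulator of Hedgehog signalling, Rab28, linked to photoreceptors and cilia, Rab40c, a Rab joined to a ubiquitin ligase adaptor domain, and Rab19 had log2 fold changes from -0.42 to -0.11. Rab19 had 8.25, 6.50 and 8.23 CPM in the Sms-OE libraries, against 10.6, 9.10 and 11.1 CPM in the control libraries, separate groups with an adjusted p of 0.0843 (edgeR, Benjamini-Hochberg). Just outside the count rule, Rab27b had 0, 8 and 13 counts in the Sms-OE libraries and 7, 0 and 23 in the control libraries. Rab3b had 4, 0 and 7 counts in the Sms-OE libraries and 0, 15 and 7 in the control libraries. Rab40b, Rab42 and Rab3c had at most 7 counts in any library, and Rab9b was at 0 in all 6.

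For the well-expressed Rab genes, the intervals of the main fit were mostly narrow. They measure the spread between these libraries, which may be technical, and leave out the choice of processing. For Rab29 the value of -0.14 with length and GC offsets lay outside its interval of -0.79 to -0.18. At a mean of 10 CPM or more, 6 of 35 Rab genes passed (17.1%, beside 40.7% of all 8576 such genes), and none had an absolute log2 fold change above 0.49. The 95% interval lay within 1.5-fold in both directions for 32 of these 35 genes, or 91.4%, beside 53.5% of all genes at 10 CPM or more. The exceptions were Rab8b, Rab33b and Rab29. The median absolute log2 fold change was 0.14 for these Rab genes and 0.29 for all genes at 10 CPM or more. These Rab genes had a median level of 83.5 CPM, against 40.89 CPM for all such genes. The part of level in the narrower intervals and smaller changes was not tested. Under 10 CPM, 1 of 18 Rab genes passed (5.56%, beside 14.6% of all such genes), and the interval lay within 1.5-fold in both directions for 1 of the 18, Rab39.

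**Figure D4:**
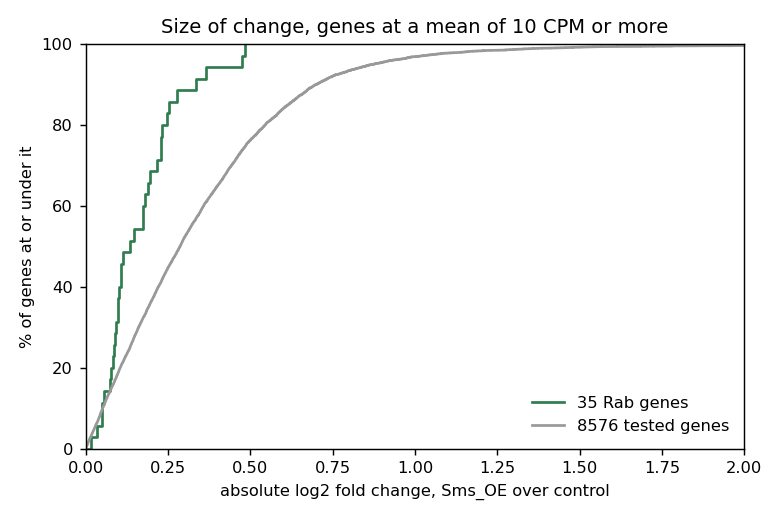
Cumulative share of genes (%) against absolute log2 fold change, Sms_OE over control, for the 35 Rab genes (green) and all 8576 tested genes (grey) at a mean of 10 CPM or more. The Rab curve reaches 100% by 0.49, left of the curve of all genes over most of its range.

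The summed level of the 53 genes was 4632, 5529 and 4884 CPM in the Sms-OE libraries, against 4592, 4911 and 4882 CPM in the control libraries. The groups overlapped, with the highest value in Sms-OE replicate 2, in which Rab44 and Rab7 were also highest. Without Rab44 and Rab7 the sums were 3131 ± 103 CPM in Sms-OE and 3129 ± 39.7 CPM in control libraries (SD, n = 3 each). These sums were not tested.

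Paralogues were also compared within each library, as the log2 ratio of their counts plus 0.5, into which no scaling between libraries enters. The 13 pairs were taken by symbol after the gene values had been seen. In 4 of the 13 pairs the groups did not overlap, beside 44.1% of single tested genes, and no share was computed for ratios of other genes. With 3 libraries a group the two-sided exact permutation test can go no lower than p = 0.1, so no pair could pass, whatever its values. The smallest p of that test, adjusted over the 13 pairs, was 0.325. The ratio of Rab8a to Rab8b was -1.13, -1.12 and -1.04 in the Sms-OE libraries, against -0.54, -0.63 and -0.45 in the control libraries, a difference of -0.56. The ratio of Rab33a to Rab33b was -5.47, -5.07 and -4.46 in the Sms-OE libraries, against -3.53, -3.71 and -3.27 in the control libraries, a difference of -1.50. In both pairs the balance lay further toward the b form in every Sms-OE library. For Rab5a over Rab5b the ratios were -0.37, 0.07 and -0.06 in the Sms-OE libraries, against -0.66, -0.50 and -0.54 in the control libraries, a difference of 0.45. For Rab5a over Rab5c the difference was 0.32, so within the Rab5 genes the balance lay further toward Rab5a. The other 9 pairs, among them Rab1a and Rab1b, Rab11a and Rab11b, and Rab7 and Rab7b, overlapped.

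**Figure D5:**
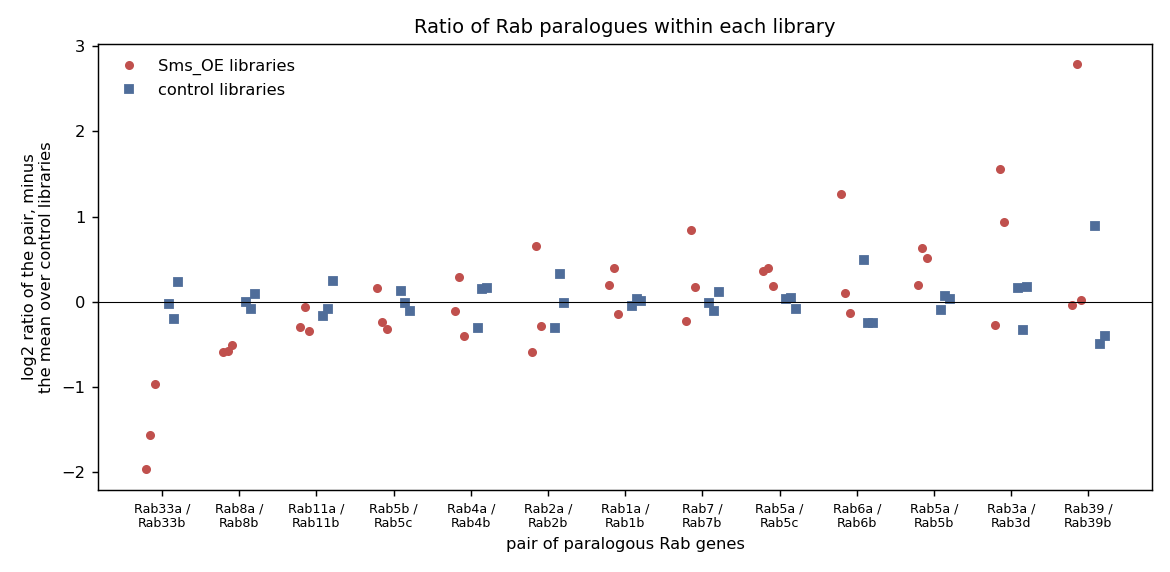
Log2 ratio of 13 pairs of Rab paralogues within each library, minus the mean over the control libraries of that pair (red circles, Sms_OE; blue squares, control; n = 3 libraries a group). The groups are separate for Rab33a/Rab33b and Rab8a/Rab8b, where Sms_OE lies lower, and for Rab5a/Rab5c and Rab5a/Rab5b, where Sms_OE lies higher.

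The genes that control Rab proteins moved in both directions. Of 45 exchange factors, 11 rose and 6 fell (37.8%, beside 26.9% of all tested genes), with a median log2 fold change of 0.11. With offsets for transcript length and GC content 8 of the 45 passed, beside 21.1% of all tested genes. Rabgef1, the exchange factor of Rab5 also called Rabex-5, had 354, 440.0 and 346 CPM in the Sms-OE libraries, against 187, 199.9 and 203 CPM in the control libraries, with no overlap, and rose 1.93-fold (edgeR, Benjamini-Hochberg adjusted p = 0.000478). Smcr8, the partner of C9orf72, rose 1.66-fold, whereas Trappc1, a subunit of the TRAPP complexes that load Rab1, fell 1.68-fold and Rab3il1, a relative of the Rab8 exchange factor Rabin8, fell 2.02-fold. Of 38 GTPase-activating proteins, 6 rose and 3 fell (23.7%, median 0.07), and 6 passed with those offsets. Among them Tbc1d23 rose 1.35-fold and Rabgap1 1.30-fold, whereas Tbc1d13, which acts on Rab35, fell 1.35-fold and Tbc1d7, better known as a subunit of the TSC complex, fell 1.81-fold.

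Of 48 tested effectors, 13 rose and 1, Plin3, fell (29.2%, beside 26.9% of all tested genes, median 0.19). With length and GC offsets 11 of the 48 passed, beside 21.1% of all tested genes. The median effector transcript was 5282 bases, beside 2817 over all tested genes, and long transcripts were more often higher over all genes. The part of length in the direction of the effectors was not tested. Rab11fip1, an effector of Rab11 in recycling, averaged 336 ± 41 CPM in Sms-OE and 180 ± 14 CPM in control libraries (SD, n = 3 each) and rose 1.87-fold (edgeR, Benjamini-Hochberg adjusted p = 0.000581). Spag9, a motor adaptor, rose 1.53-fold, Appl2, an effector of Rab5, 1.47-fold and Plekhm1, which links Rab7 to the tethering complex HOPS, 1.39-fold. Rab11a and Rab11b themselves, and Rab7, did not pass. Of the 3 kinases and phosphatase genes, Lrrk2 rose as above, Ppm1h, a phosphatase that removes the phosphate placed by Lrrk2, rose 1.2-fold, and Lrrk1 did not pass. With length and GC offsets 1 of these 3 passed.

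Tethering, retrieval and fusion machinery was read next, beside 12.5% higher and 14.3% lower over all tested genes. Over all tested genes 21.1% passed with the length and GC offsets and 23.6% with library size alone. Of 20 genes of HOPS, CORVET and retromer, the last of which retrieves cargo from endosomes, 2 rose and 6 fell (40%, median -0.17), but only 4 passed with the length and GC offsets and 5 with library size alone. The sorting nexins Snx5, Snx2 and Snx6 fell 1.51-fold, 1.48-fold and 1.33-fold and the retromer subunit Vps29 fell 1.44-fold. Of 32 tested SNARE genes, whose products fuse vesicle and target membranes, 3 rose and 8 fell (34.4%, median -0.16), but only 6 passed with the offsets and 6 with library size alone. Vamp8 and Vti1b, SNAREs of late endosomes, fell 1.45-fold and 1.46-fold, whereas Vamp1 rose 1.89-fold and Stx11, a SNARE of cytotoxic granules, rose 1.66-fold. Of 9 exocyst genes 0 rose and Exoc3 fell, 1.41-fold (11.1%, median -0.09; 2 passed with the offsets). Of 11 genes of prenylation and the membrane cycle, 0 rose and 2 fell (18.2%, median -0.04): Rabggtb, a subunit of the enzyme that prenylates Rab proteins, fell 1.30-fold and Fdps, which makes a precursor of the prenyl group, fell 2.04-fold.

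These list counts were not tested as sets, and they depended on single libraries as well as on the offsets. Without control replicate 2, 10 exchange factors, 8 effectors, 4 genes of HOPS, CORVET and retromer and 1 GTPase-activating protein passed, beside 15.9% of all tested genes. Without control replicate 3, 5 SNARE genes passed, beside 17.4%. Without Sms-OE replicate 2, none of the kinases and phosphatase genes passed, as also without Sms-OE replicate 3, control replicate 1 or control replicate 2. Over all tested genes 21.2%, 17.4%, 17.6% and 15.9% passed in those analyses, in that order. Gene length ran with direction over all genes: of 4 equal groups by transcript length, the shortest held 233 higher and 808 lower genes, and the longest 1198 higher and 331 lower. Of the Rab genes, the shortest group held 9 (0 higher, 2 lower) and the longest 12 (1 higher, 1 lower). The median transcript was 2900 bases for the Rab genes, 5282 for the effectors and 2939 for the SNARE genes.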

How the data were processed

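RNA was sequenced from F4/80+ tumour cells in 6 libraries, 3 Sms-OE and 3 control, grouped by their titles. Per the labels' protocols, RNA was selected on oligo(dT) beads and the second strand was marked with dUTP. The submitters' processing notes list, without roles, HISAT2 2.2.1, StringTie 2.1.6, DESeq2, FastQC 0.11.9 and cutadapt 1.9. The genome build, annotation and strand setting were not given in the sources used here. The values the authors deposited are unnormalized estimated counts, written as whole numbers, with totals of 49833764 to 58154006. No source says how they were estimated, which leaves the counting error uncertain.

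The members and gene lists were chosen with earlier results of these data known. Symbols, exons and coordinates came from GENCODE M21 (GRCm38) by Ensembl identifier, for 55141 of 55401 rows. The 59 Rab rows were filtered to 53 by at least 10 counts in 3 libraries. The main test was edgeR 4.0.16 in R 4.3.3 (glmQLFit with the robust option and glmQLFTest, after filterByExpr and TMM scaling) on all 6 libraries, with Benjamini-Hochberg adjustment over 18277 genes and a threshold of 0.05. Each standard error is the log2 fold change divided by the root of its F value, and intervals are 95%. Paralogue ratios are log2 of counts plus 0.5, compared by a two-sided exact permutation test. No 2 libraries of a group held the same values. Every member is named, all per-library values are given for members past the threshold and for abundant ones of each role, and from each pathway list up to 4 genes past the threshold by smallest p. The other genes named (Plin3, Lrrk1, Mrpl48, Prelid1, Gm45140) fall outside that rule and were chosen after their values were seen.

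Marker lists were summed as CPM. Reads of 4 Rab pseudogenes and of overlapping genes (19 of the 53 members share exon bases with another gene) could not be told apart with certainty. Alternatives were library size alone, upper-quartile factors, size factors and the Wald test of DESeq2 1.42.0, other low-count filters, limma-voom 3.58.1, a fit that was not robust, a block for replicate number, offsets for length and GC, a hepatocyte covariate, removal of mitochondrial and haemoglobin rows, and each library left out. Leaving out Sms-OE replicates 2 and 3 together was added after seeing the data. Only the main fit and the fit with offsets were run on simulated counts, into which no trend by length or GC content was put. The other alternatives and the paralogue ratios were not run on them. A few listed genes are not reported here.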

Additional observations from a re-analysis of the deposited data

How the results depend on the processing

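Of the Rab genes 7 passed the threshold (3 higher, 4 lower) with a median log2 fold change of -0.08, and that total, the median's sign and the counts over all genes (4908, of them 2293 higher and 2615 lower) depended on several choices. With library size alone 3 passed, 1 of them lower (5.66%, beside 23.6% of all tested genes), and the median was -0.0206. Without a low-count filter 5 passed, 1 of them higher (9.43%, beside 15.4%). With length and GC offsets 6 were higher and 4 lower (18.9%, beside 21.1%). Rab5a, Rab7 and Rab31 gained a call as higher and Rab14 as lower, while Rab29 lost its call. The median was then 0.0725 and Rab5c turned to 0.0807. The fitted sign changed under these offsets for 12 Rab genes, Rab1a, Rab2a, Rab4a, Rab5c, Rab9, Rab11a, Rab11b, Rab12, Rab20, Rab22a, Rab28 and Rab32, none past the threshold with or without them. With the hepatocyte marker covariate 0 Rab genes and 0 of all genes passed in either direction (2 and 1187 at an unadjusted p under 0.05 in edgeR). The Rab median was then 0.13. The fitted sign changed for 19 Rab genes, among them Rab18, Rab38 and Rab3d, at 0.16, 2.76 and 0.13. Without the haemoglobin-rich Sms-OE replicates 2 and 3, chosen after seeing the data, 0 Rab genes passed (0 higher, 0 lower), beside 1384 of all genes (690 higher, 694 lower), and Rab44 turned to -0.14. The cause of these changes was not tested. DESeq2 size factors, the DESeq2 Wald test, omission of the robust step and removal of mitochondrial and haemoglobin rows each called the same 7 Rab genes. These made 13.2%, beside 26.2 to 30.7% of all tested genes. Upper-quartile factors called 6 (11.3%, beside 26.3%). A filter of 1 CPM in 3 libraries called 9 (18.4%, beside 35%) and limma-voom 9 (17%, beside 28.3%), each with all 7 among them.

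With each library left out in turn, 2 to 6 Rab genes passed (1 to 2 higher, 1 to 5 lower), beside 3050 to 4488 of all genes (1366 to 2015 higher, 1684 to 2473 lower). The shares were 3.77 to 11.3% of the Rab genes and 15.9 to 23.7% of all tested genes. The median ran from -0.08 to -0.03, the summed Rab level of Sms-OE minus control from -63.9 to 389 CPM around 219.7 CPM, and Rab44 from -0.00963, without Sms-OE replicate 2, to 0.31. Rab8b and Rab13 passed in each of these 6 analyses. For the 4 paralogue pairs whose groups did not overlap, leaving out 1 library could not reverse the direction, so only the size is given. The difference ran from -0.60 to -0.51 for Rab8a over Rab8b and from -1.77 to -1.26 for Rab33a over Rab33b.

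The labels do not say whether a replicate number is shared between the groups. Same-numbered deviations correlated at 0.19, 0.05 and -0.06, and those of unlike numbers from -0.21 to 0.17. With 3 libraries a group these values cannot decide whether the libraries were paired. With the number as a replicate block 3 Rab genes passed (1 higher, 2 lower: Rab8b, Rab13 and Rab29), beside 4532 of all genes. Of 228 values of the pathway and GTPase lists under these alternatives, 149 stayed within 1.5 times the main count and 79 did not.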

Other observations

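Other small GTPases were read in the same fit, from lists by family, beside 26.9% of all tested genes past the threshold. Of 26 tested Arf and Arl genes, which act in coat assembly and lysosome positioning, 3 rose and 6 fell (34.6%, median log2 fold change -0.17). Arl5b, an Arl of the Golgi, had 138, 179 and 157 CPM in the Sms-OE libraries, against 65.8, 72.3 and 73.5 CPM in the control libraries, which did not overlap, and rose 2.25-fold (edgeR, Benjamini-Hochberg adjusted p = 0.000187). Arl4d rose 1.86-fold and Arl4c 1.65-fold, whereas Arl8b, which moves lysosomes outward along microtubules, fell 1.34-fold. Without control replicate 2, 4 genes of this family passed, beside 15.9% of all tested genes.

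Of 22 tested Ras and Rap genes, which relay growth and adhesion signals, 1 rose and 5 fell (27.3%, median -0.10). Mras had 4.80, 3.35 and 3.23 CPM in the Sms-OE libraries, against 15.8, 13.3 and 9.37 CPM in the control libraries, which did not overlap, and fell 3.38-fold (edgeR, Benjamini-Hochberg adjusted p = 0.000928). Rras2 fell 1.99-fold, Rap2a 1.65-fold and Nras 1.25-fold. In this family 3 genes passed without Sms-OE replicate 3 and 3 without control replicate 2, beside 17.4% and 15.9% of all tested genes. Of 6 tested Rab-like genes 1 rose and 3 fell (66.7%, median -0.47). With length and GC offsets 1 of 6 passed and with library size alone 2 of 6, beside 21.1% and 23.6% of all tested genes. Cracr2a, a large Rab-like protein with calcium-binding motifs, rose 1.49-fold, while Rabl3 and the ciliary transport genes Ift27 and Ift22 fell 1.59-fold, 1.59-fold and 1.57-fold. Without control replicate 2, 0 of these 6 passed in edgeR, beside 15.9% of all tested genes.

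The remaining cell type markers, as summed CPM, were as follows. Macrophage markers reached 6735 to 7842 in Sms-OE and 6268 to 6447 in control libraries (2 of 10 higher, 2 lower), and dendritic cell markers 49.2 to 57.3 in Sms-OE and 70.0 to 86.2 in control (1 of 7 higher, 3 lower). Endothelial markers reached 116 to 154 in Sms-OE and 143 to 159 in control (1 of 7 higher, 4 lower), and stellate cell and fibroblast markers 97.7 to 135 in Sms-OE and 65.0 to 82.9 in control (2 of 5 tested higher, with Lrat at 0 in Sms-OE). Platelet markers reached 47.0 to 67.7 in Sms-OE and 25.9 to 34.9 in control (1 of 5 higher), and T and NK cell markers 359 to 495 in Sms-OE and 302 to 467 in control (1 of 9 higher). B cell markers reached 23.0 to 31.6 in Sms-OE and 24.4 to 27.3 in control (0 of 5 past the threshold in edgeR, 0 at an unadjusted p under 0.05). Hepatoma markers reached 49.3 to 69.8 in Sms-OE and 72.02 to 88.1 in control (2 of 4 tested lower, with Igf2 at 0 in every library), and erythroid markers 216 to 5044 in Sms-OE and 43.2 to 189 in control (0 of 5 tested past the threshold in edgeR, 5 at an unadjusted p under 0.05).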
